A study of Homo sapiens with 12 samples.

Results

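The circadian clock genes described here are BHLHE40, CIART, PER1, PER2, PER3, CRY1, CRY2, NR1D1, NR1D2 and DBP, 10 of the 62069 genes in the deposited table. All 10 were among the 19281 genes kept, those with a normalised read count of at least 10 in at least 3 libraries. They were chosen by measured values: BHLHE40 and CIART were among the largest rises in the GSI-labelled libraries at 48 h in an earlier analysis of these data, and the other 8 were added as clock genes with those results known. The 48 h comparison of GSI with DMSO is therefore a description for all 10 genes, with no test, and BHLHE40 and CIART are tested at 12 h only.

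RNA was measured in CUTLL1 cells, an established line from a human T-cell leukaemia (T-ALL) in which a rearranged NOTCH1 gene is always active. Poly-A RNA was sequenced in 12 libraries, 3 in each of 4 groups: 1 µM Compound E for 48 h, DMSO for 48 h, 1 µM Compound E for 12 h and DMSO for 12 h. Compound E inhibits gamma-secretase (GSI), the protease that releases the active part of NOTCH1, and DMSO is its solvent, so the comparison asks which transcripts depend on that signal. The labels do not say whether the 3 libraries of a group were grown as separate cultures. The p-values therefore cover no more than library-to-library spread, and all 12 libraries come from 1 cell line.

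The labels were checked against a NOTCH1 target. NRARP, a feedback inhibitor of Notch signalling, had 1333 to 1995 normalised reads in the GSI-labelled and 2340 to 3564 in the DMSO-labelled libraries at 48 h, against 16831 to 25383 in the GSI-labelled and 36766 to 49346 in the DMSO-labelled libraries at 12 h. NRARP was lower in GSI at both times, but the DMSO-labelled libraries at 48 h lay below every GSI-labelled library at 12 h, and NRARP thus differed far more by time than by treatment. It is 1 of a list of 16 NOTCH1 target genes that did not all go its way. In the test described below, 7 of the 16 were called lower in GSI at 12 h, against 11.4% of all genes kept. At 48 h 3 were, against 5.35%, and 0 were called higher at either time. The log2 difference was above 0 for 5 of the 16 at 12 h and 3 at 48 h. The median difference was -0.49 at 12 h and -0.35 at 48 h. Over time, 11 of the 16 were called lower at 48 h than at 12 h in DMSO and 12 in GSI. Of all genes kept, 4.53% and 3.98% were called in either direction. The median log2 differences over time were -1.72 in DMSO and -1.40 in GSI, so most of the list was lower at 48 h without GSI too. The cause was not tested. Every direction below is drawn from the labels as given. Recovered depth was 73939612 to 160702764 reads per library. The 7 T-lineage markers summed to 226209 to 329284 normalised reads, and markers of myeloid, erythroid, fibroblast and epithelial cells to at most 52.2. Of the 3 B-lineage markers, CD79A passed the filter, and their sums ran from 662 to 3042.

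In the clock, the transcription factors CLOCK and BMAL1 bind E-box sequences and switch on the PER and CRY genes, whose proteins then block CLOCK and BMAL1. BHLHE40 (also called DEC1) and CIART (CHRONO) are further repressors of the same pair, the nuclear receptors NR1D1 and NR1D2 (REV-ERB) repress BMAL1 transcription, and DBP activates genes with D-box sequences. BHLHE40 is also a known target of hypoxia-inducible factors. Cells of an unsynchronised culture are out of phase with one another, so a bulk library averages over phases.

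The promoters of the genes are shown because the E-box CACGTG, bound by CLOCK and BMAL1 and by BHLHE40 itself, contains the 5 letters ACGTG that also form the core of hypoxia response elements. Sequences are RefSeq windows of the 250 bases before a gene start on GRCh38.p14, a later build than the hg19 the authors used, and 13 such windows matched the 10 genes. Windows are cut where a GENCODE 29 exon begins, and since that of BHLHE40 lies inside an annotated exon, only stretches of 30 bases are given for it. Capitals mark CACGTG and, elsewhere, ACGTG on either strand (CACGT when read on the strand printed).
BHLHE40, chr3:4979187-4979216, plus strand: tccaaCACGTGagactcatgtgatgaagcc
BHLHE40, chr3:4979258-4979287, plus strand: gccagACGTGcctggagtcacagggtagaa
BHLHE40, chr3:4979283-4979312, plus strand: tagaaCACGTagctccaacccacccactcg
CIART, chr1:150282304-150282542, plus strand: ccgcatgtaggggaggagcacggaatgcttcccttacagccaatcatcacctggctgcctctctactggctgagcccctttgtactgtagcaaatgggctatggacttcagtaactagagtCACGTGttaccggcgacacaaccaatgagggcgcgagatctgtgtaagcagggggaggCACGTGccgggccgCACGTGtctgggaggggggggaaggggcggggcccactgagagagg
PER1, chr17:8152436-8152654, minus strand: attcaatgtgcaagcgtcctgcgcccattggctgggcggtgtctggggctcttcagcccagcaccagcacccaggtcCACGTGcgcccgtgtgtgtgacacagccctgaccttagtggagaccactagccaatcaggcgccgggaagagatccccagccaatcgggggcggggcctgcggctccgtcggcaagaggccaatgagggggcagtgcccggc
NR1D2, chr3:23945871-23946120, plus strand: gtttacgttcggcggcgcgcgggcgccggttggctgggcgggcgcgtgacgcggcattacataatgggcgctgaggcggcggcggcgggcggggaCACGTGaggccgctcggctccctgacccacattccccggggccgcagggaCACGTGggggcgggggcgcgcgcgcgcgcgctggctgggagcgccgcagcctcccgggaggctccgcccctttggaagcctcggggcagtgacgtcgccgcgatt
CIART held 3 E-boxes, starting 129, 71 and 57 bases before its start, NR1D2 held 2 in 1 of its windows, and PER1 and BHLHE40 held 1 each. BHLHE40 held 2 further ACGTG cores, 174 and 149 bases before its start. E-boxes were thus in 4 of the 10 genes, where 6.34% of all 35116 RefSeq windows of this length hold at least 1 and 0.0797% at least 3. The core, counted on both strands and including the E-boxes, was in 8 of the 10 genes, all but PER3 and DBP, against 18.5% of all windows. The D-box TTATGTAA was in PER3 and NR1D2, against 0.834% of all windows. The counts are of genes with a match in any of their windows, and PER3, CRY2 and NR1D2 had more than 1 window. The shares are of single windows, so counts and shares are not measured alike. All are matches of letters in a window and not measured binding.

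BHLHE40 and CIART were the clock genes with the largest differences between the labels. BHLHE40 (ENSG00000134107) had 5400, 472 and 3850 normalised reads in the GSI-labelled libraries 1, 2 and 3 at 48 h, against 424, 284 and 131 in the DMSO-labelled ones. The values at 12 h were 10616, 1871 and 10266 normalised reads in GSI-labelled libraries, against 539, 418 and 157 in DMSO-labelled ones. The groups did not overlap at either time, but library 2 of GSI at 48 h, at 472, stood close to library 1 of DMSO, at 424. The GSI libraries numbered 2 were the lowest of their groups at both times.

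Differences were fitted on the log2(value + 1) scale, and a gene was called where its p, adjusted over all genes kept, was under 0.05. The GSI minus DMSO difference of BHLHE40 was 3.09 ± 0.86 (moderated SE, 3 libraries a group) at 48 h, a description, and 4.16 ± 0.86 at 12 h, a 17.9-fold higher level (limma, adjusted p = 0.0069). Without the GSI library numbered 2 the difference was 4.18 at 48 h and 4.99 at 12 h. The labels give no reason to leave out the GSI libraries numbered 2, so fits without both of them are descriptions here and below. BHLHE40 rose in the GSI-labelled libraries at 12 h with every library left out in turn. Bulk RNA cannot tell a change in RNA per cell apart from a change in the share of cells that express the gene.

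CIART (ENSG00000159208) was also higher in every GSI library. It had 415, 69.0 and 229 normalised reads in the GSI-labelled libraries at 48 h, against 38.1, 20.1 and 16.8 in the DMSO-labelled ones. Its 12 h levels were 330, 98.7 and 524 normalised reads in GSI-labelled libraries, against 53.1, 40.0 and 21.2 in DMSO-labelled ones. No library of DMSO reached any of GSI at the same time, and number 2 was again the lowest of GSI. The log2 difference was 2.94 ± 0.66 at 48 h, a description, and 2.82 ± 0.66 at 12 h, where CIART rose 7.06-fold (limma, adjusted p = 0.011). Without library 1 of GSI at 12 h the 12 h difference was 2.64 with an adjusted p of 0.0516, which ends the call.

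**Figure D1:**
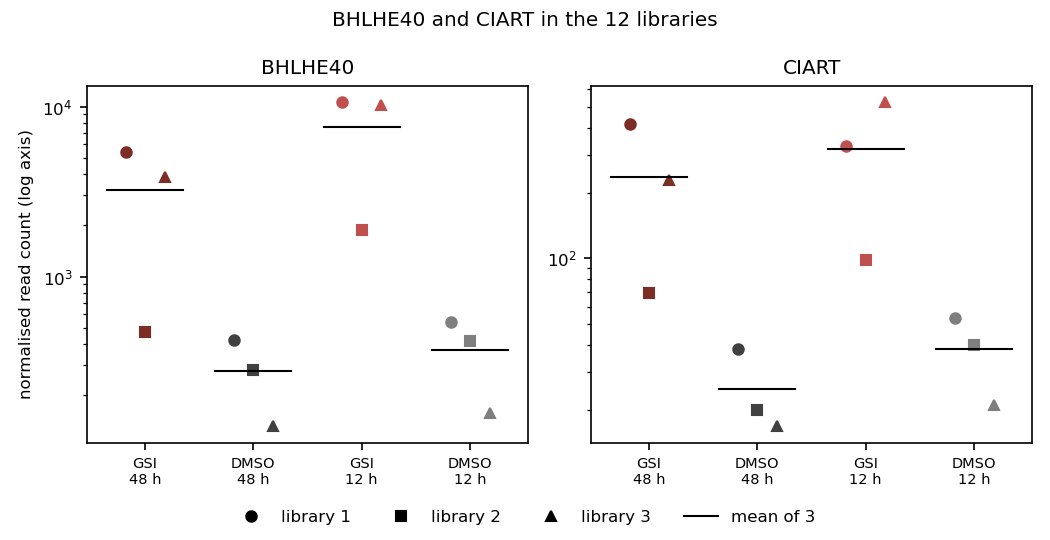
Normalised read counts of BHLHE40 and CIART on log axes in the libraries labelled GSI and DMSO at 48 h and at 12 h, with 1 symbol per library number and a line at the mean of 3. Library 2 of GSI (square) lies below the other GSI libraries at both times, and near the DMSO libraries for BHLHE40 at 48 h.

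Other genes moved with the same libraries. A list of 24 genes that hypoxia is known to induce, among them the glucose transporter SLC2A1 and the lactate dehydrogenase LDHA, had a median log2 level relative to the mean of all 12 libraries of 1.23, -0.17 and 0.68 in GSI-labelled libraries 1, 2 and 3 at 48 h, against -1.08 to -0.75 in DMSO-labelled ones. At 12 h this median was 1.77, 0.27 and 1.86 in GSI-labelled libraries, against -1.11 to -0.86 in DMSO-labelled ones. Of the 24 genes, 12 were called higher in GSI at 48 h, against 4.33% of all genes kept, with a median log2 difference of 1.51. At 12 h 23 were, against 10.1% of all genes kept, with a median of 2.30. The list was chosen with earlier results of these data known, so these counts are descriptions. The GSI libraries numbered 2 thus had the lowest median of the hypoxia list, of BHLHE40 and of CIART within GSI. The part of these genes in the differences of the clock genes was not tested.

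**Figure D2:**
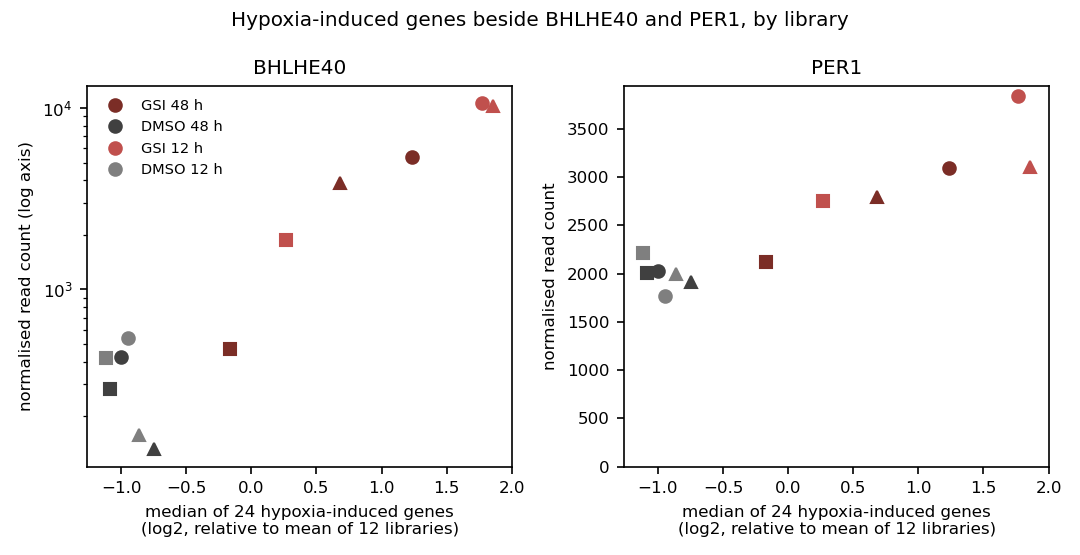
Normalised read counts of BHLHE40 (log axis) and PER1 (linear axis) against the median of 24 hypoxia-induced genes in log2 relative to the mean of 12 libraries, with 1 point per library and symbols as library numbers 1 (circle), 2 (square) and 3 (triangle). All DMSO-labelled libraries lie between -1.11 and -0.75 on the horizontal axis, and the GSI libraries numbered 2, at -0.17 and 0.27, lie between them and the other GSI libraries.

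The 3 PER genes, whose proteins form the repressor complex with CRY, did not all go one way. PER1 (ENSG00000179094) had 3097, 2115 and 2793 normalised reads in the GSI-labelled libraries at 48 h, against 2024, 2007 and 1911 in the DMSO-labelled ones, a log2 difference of 0.41 ± 0.15. At 12 h it had 3838, 2746 and 3104 normalised reads in GSI-labelled libraries, against 1763, 2213 and 1994 in DMSO-labelled ones. The groups did not overlap at either time, and at 12 h PER1 rose by a log2 difference of 0.69 ± 0.15, or 1.61-fold (limma, adjusted p = 0.0085).

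PER2 (ENSG00000132326) went the other way. It had 2767, 2689 and 2828 normalised reads in the GSI-labelled libraries at 48 h, against 3924, 3143 and 3237 in the DMSO-labelled ones, a log2 difference of -0.31 ± 0.11. The values at 12 h were 3031, 2783 and 3557 normalised reads in GSI-labelled libraries, against 4861, 4275 and 4134 in DMSO-labelled ones. Every library of GSI lay below every one of DMSO at the same time, and at 12 h PER2 fell by 0.51 ± 0.11 on the log2 scale, to 0.704 of the DMSO level (limma, adjusted p = 0.0098). Leaving out the GSI libraries numbered 2, which were low for BHLHE40, gave -0.29 at 48 h and -0.43 at 12 h.

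PER3 (ENSG00000049246) was also lower in GSI in all libraries. It had 755, 851 and 689 normalised reads in the GSI-labelled libraries at 48 h, against 1074, 1178 and 939 in the DMSO-labelled ones, a log2 difference of -0.47 ± 0.14. Its 12 h levels were 851, 1021 and 827 normalised reads in GSI-labelled libraries, against 1075, 1321 and 1025 in DMSO-labelled ones. The 12 h groups came as close as 1021 in GSI and 1025 in DMSO, and the log2 difference of -0.34 ± 0.14 did not pass the test (limma, adjusted p = 0.097). Without both GSI libraries numbered 2 it was -0.43 with an adjusted p of 0.041. Within each library number PER3 was lower in GSI at both times, with log2 differences of -0.51 to -0.31.

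CRY1 and CRY2, whose proteins bind PER and block CLOCK and BMAL1, were not called at 12 h in the fit of all libraries. CRY1 (ENSG00000008405) averaged 10582 ± 491 normalised reads in the GSI-labelled libraries at 48 h and 9220 ± 1010 in the DMSO-labelled ones, and 9590 ± 979 in GSI and 8064 ± 767 in DMSO at 12 h (SD, n = 3 each). The groups overlapped at both times, though CRY1 was higher in GSI within each of the 3 library numbers at both. The log2 difference was 0.20 ± 0.11 at 48 h, a description, and 0.25 ± 0.11 at 12 h, which did not pass the test (limma, adjusted p = 0.11). Without both GSI libraries numbered 2 the 12 h difference was 0.34 (limma, adjusted p = 0.035), a description. CRY2 (ENSG00000121671) had 2621, 2248 and 2640 normalised reads in the GSI-labelled libraries at 48 h, against 1839, 1741 and 2230 in the DMSO-labelled ones, a log2 difference of 0.37 ± 0.12 with the groups just apart. At 12 h CRY2 had 2175 to 2263 normalised reads in GSI and 1913 to 2392 in DMSO, and the groups overlapped (log2 difference 0.07 ± 0.12, limma, adjusted p = 0.69).

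The levels of the REV-ERB receptors differed between the libraries of GSI. NR1D1 (ENSG00000126368) had 2127, 1310 and 2689 normalised reads in the GSI-labelled libraries at 48 h, against 1435, 1069 and 1199 in the DMSO-labelled ones, a log2 difference of 0.68 ± 0.25. At 12 h it had 2199, 1354 and 2588 normalised reads in GSI-labelled libraries, against 1635, 1466 and 1494 in DMSO-labelled ones. Library 2 of GSI fell within or below the DMSO range at both times, and the 12 h difference of 0.37 ± 0.25 did not pass the test (limma, adjusted p = 0.31). Without both GSI libraries numbered 2 it was 0.64 with an adjusted p of 0.0090. NR1D1 shares exons with THRA, a thyroid hormone receptor gene on the opposite strand, and whether counting used strand is not given in the sources used here, so reads of the overlap cannot be told apart. THRA averaged 6902 ± 847 normalised reads in GSI and 4181 ± 861 in DMSO at 48 h, and 7087 ± 555 in GSI and 4203 ± 454 in DMSO at 12 h (SD, n = 3 each), higher in GSI at both times.

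NR1D2 (ENSG00000174738), the paralog of NR1D1, had 3215, 3145 and 4622 normalised reads in the GSI-labelled libraries at 48 h, against 2445, 2130 and 2163 in the DMSO-labelled ones, a log2 difference of 0.68 ± 0.20. The values at 12 h were 2753, 2689 and 4686 normalised reads in GSI-labelled libraries, against 3068, 2643 and 2720 in DMSO-labelled ones. Library 3 of GSI was the highest at both times, while libraries 1 and 2 of GSI lay within the DMSO range at 12 h. The 12 h difference of 0.22 ± 0.20 did not pass the test (limma, adjusted p = 0.44) and was -0.044 without library 3 of GSI. Unlike for BHLHE40, CIART and NR1D1, library 2 of GSI did not stand apart from library 1.

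DBP (ENSG00000105516), the D-box activator and a direct target of CLOCK and BMAL1, had 2200, 1594 and 2548 normalised reads in the GSI-labelled libraries at 48 h, against 1244, 849 and 991 in the DMSO-labelled ones. Its 12 h levels were 2384, 2121 and 2967 normalised reads in GSI-labelled libraries, against 1597, 1147 and 1342 in DMSO-labelled ones. The groups did not overlap at either time, and DBP was higher in GSI within each library number by 0.58 to 1.36 on the log2 scale. The log2 difference was 1.03 ± 0.19 at 48 h, a description, and 0.87 ± 0.19 at 12 h, where DBP rose 1.83-fold (limma, adjusted p = 0.0097). DBP shares exons with SPHK2 on the opposite strand, so reads of that overlap cannot be told apart either. SPHK2 averaged 2414 ± 197 normalised reads in GSI and 2504 ± 283 in DMSO at 48 h. At 12 h its averages were 2348 ± 303 in GSI and 2587 ± 268 in DMSO (SD, n = 3 each).

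**Figure D3:**
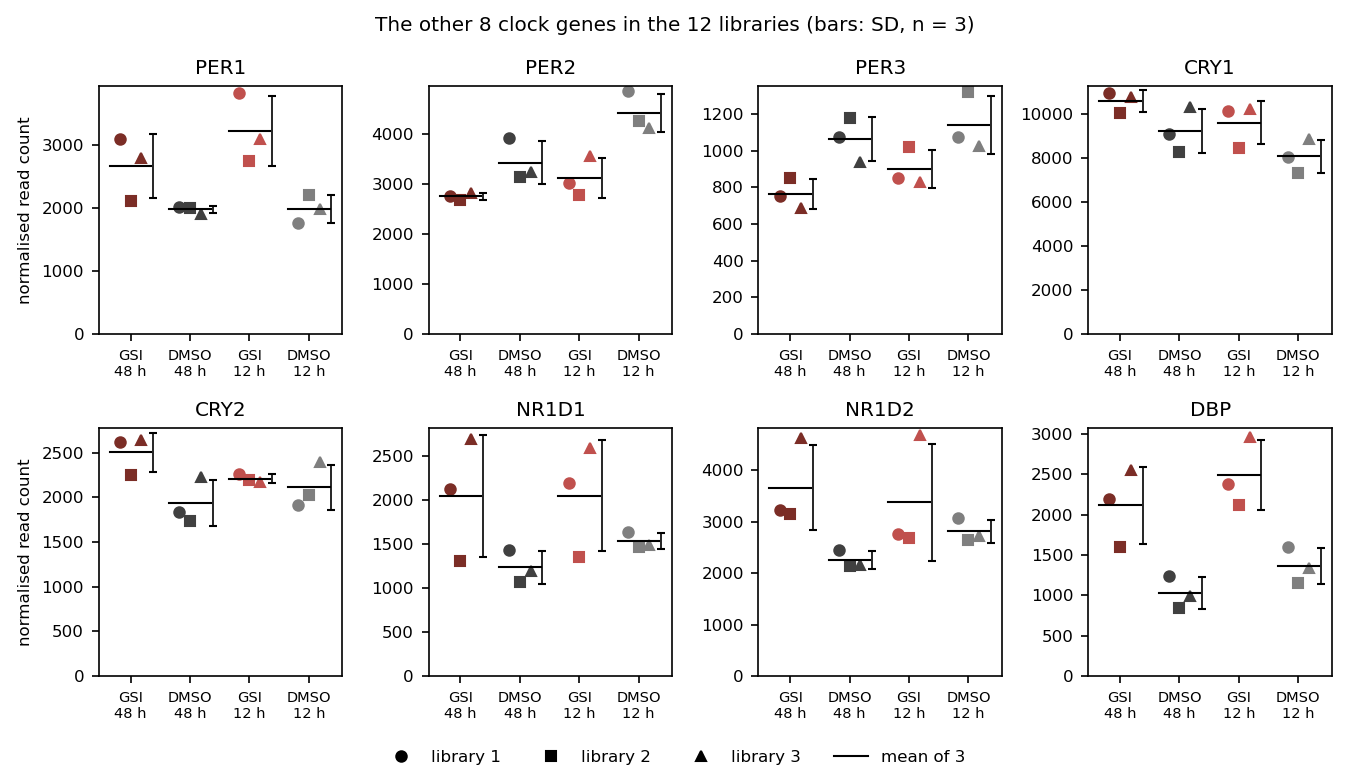
Normalised read counts of PER1, PER2, PER3, CRY1, CRY2, NR1D1, NR1D2 and DBP in the libraries labelled GSI and DMSO at 48 h and at 12 h, with 1 symbol per library number, a line at the mean and a bar of 1 SD (n = 3). DBP and PER1 are higher in every GSI library than in every DMSO library of the same time, PER2 and PER3 are lower, and NR1D2 has its highest values in library 3 of GSI, at 4622 and 4686.

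At 48 h, 6 of the 10 genes were higher in GSI with no overlap between the groups (BHLHE40, CIART, PER1, CRY2, NR1D2 and DBP), where 16.9% of all genes kept were, and 2 were lower (PER2 and PER3), where 18.5% were. This comparison chose the genes, so nothing is read from these counts. At 12 h, limma called 4 of the 10 higher in GSI (BHLHE40, CIART, PER1 and DBP), against 10.1% of all genes kept, and 1 lower (PER2), against 11.4%, so the share called lower was near that of all genes. The median log2 difference of the 10 genes at 12 h was 0.31, against 0.00064 for all genes kept. BHLHE40 and CIART count in both the calls and the median, though they were named for their rises at 48 h. Among the other 8 genes the calls were PER1 and DBP higher and PER2 lower. The share called higher and the median are thus descriptions. Without both GSI libraries numbered 2 limma called 8 of the 10 at 12 h, adding PER3, CRY1 and NR1D1, while the share of all genes kept that was called in either direction was 29.8%, against 21.5% with all libraries. Those libraries stood out by their low values of BHLHE40 and CIART, so the added calls are a description. The 12 h calls of BHLHE40, PER1, PER2 and DBP held with each of the 12 libraries left out in turn, and PER3 and CRY1 were also called without library 2 of GSI at 12 h alone. The 12 h and 48 h comparisons use separate libraries, but libraries with the same number deviated together over time, so one is not an independent repeat of the other.

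**Figure D4:**
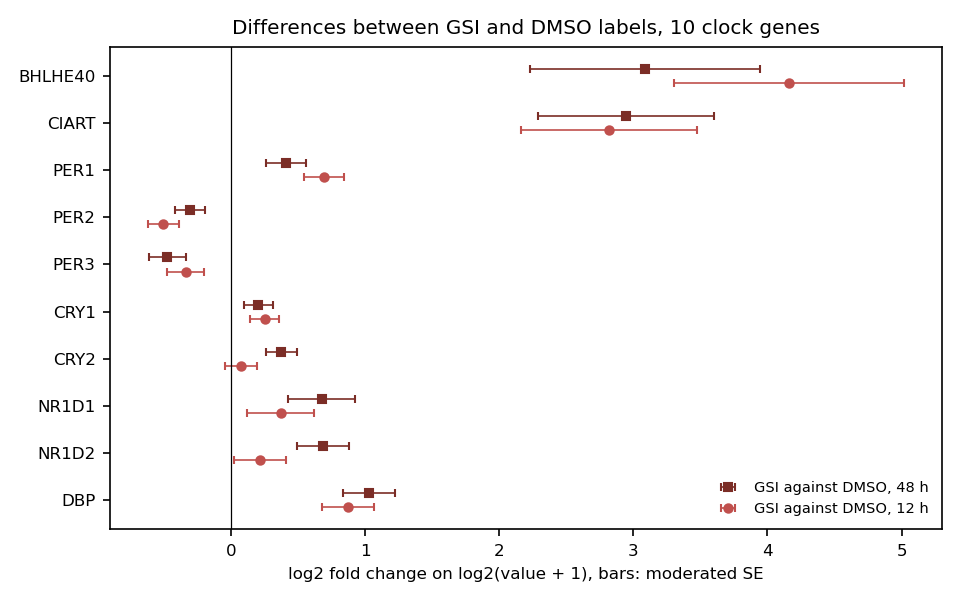
Log2 fold change of GSI over DMSO on the log2(value + 1) scale for the 10 clock genes at 48 h (squares) and 12 h (circles), with bars of 1 moderated SE. BHLHE40 and CIART lie at 2.82 to 4.16, PER2 and PER3 lie below 0 at both times, and the other 6 genes lie between 0.07 and 1.03.

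Time alone was examined within each label, in the 8 genes other than BHLHE40 and CIART. These contrasts use the 48 h libraries, which chose the genes, so their p-values are read as descriptions. Limma called 0 of the 8 between 48 h and 12 h in DMSO, with 1 at an unadjusted p under 0.05, and 0 of the 8 in GSI, with 0 at an unadjusted p under 0.05; of all genes kept, 4.53% were called in DMSO and 3.98% in GSI. PER2 came nearest, at 3434 ± 426 normalised reads at 48 h and 4423 ± 385 at 12 h in DMSO (SD, n = 3 each), a log2 difference of -0.37 ± 0.11 (limma, adjusted p = 0.091). It was called once the library number was a block in the limma fit (adjusted p = 0.032) and by DESeq2 (adjusted p = 0.046), while edgeR called 0 of the 8. In GSI, edgeR, DESeq2 and the blocked fit called 0 of the 8. Same-numbered libraries deviated together over time, which the fit without the block leaves out. The blocked fit called 12.3% of all genes kept in DMSO and 10.1% in GSI. The 48 h minus 12 h difference of BHLHE40 was -0.39 ± 0.86 in DMSO and -1.46 ± 0.86 in GSI, and that of CIART -0.58 ± 0.66 in DMSO and -0.46 ± 0.66 in GSI, as descriptions.

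Whether the difference between labels itself changed with time was fitted as an interaction. That contrast contains the 48 h difference, which chose the genes, so its p-values for the clock genes are read as descriptions. Limma called 0 of the 8 genes, with 0 at an unadjusted p under 0.05 and each adjusted p at 0.999, and edgeR and DESeq2 also called 0 of the 8; of all genes kept, 0% were called by limma. The largest of these changes was in NR1D2, where the GSI minus DMSO difference was 0.47 ± 0.28 larger on the log2 scale at 48 h than at 12 h. A miss of the threshold does not show that the differences were equal at both times.

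Ordered by their means, both GSI groups lay above both DMSO groups for PER1, CRY1, CRY2, NR1D1, NR1D2 and DBP, and below both for PER2 and PER3. PER1 averaged 3229 normalised reads in GSI at 12 h, 2668 in GSI at 48 h, 1990 in DMSO at 12 h and 1981 in DMSO at 48 h. DBP averaged 2491 normalised reads in GSI at 12 h, 2114 in GSI at 48 h, 1362 in DMSO at 12 h and 1028 in DMSO at 48 h. Groups next to each other in the order of means overlapped for PER1, PER3, CRY1, CRY2 and DBP. For PER2, NR1D1 and NR1D2 they overlapped except between the DMSO groups, where all 48 h libraries lay below all 12 h libraries, as they did for 13.1% of all genes kept. These orders are descriptions, since the 48 h libraries chose the genes.

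Of 21 other clock genes in a list chosen for their roles, with earlier results of these data known, 19 were kept. Because of that choice, all calls and p-values of these genes, between labels and over time, are read as descriptions. BHLHE41, the paralog of BHLHE40, reached 0.885 normalised reads at most, and FBXL21P, listed under that name, was at 0 in all libraries. At 48 h limma called 2 of the 19 higher in GSI, RORA and TEF, against 4.33% of all genes kept, and 0 lower, against 5.35%. At 12 h it called 5 higher (RORA, NFIL3, TEF, RORB and BMAL1), against 10.1% of all genes kept, and 1 lower (CSNK1D), against 11.4%. The median log2 difference of the 19 was 0.10 at 48 h and 0.18 at 12 h.

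RORA, a nuclear receptor that activates BMAL1 in competition with the REV-ERB receptors, had 2543, 1303 and 1745 normalised reads in the GSI-labelled libraries at 48 h, against 1014, 655 and 641 in the DMSO-labelled ones. At 12 h it had 2863, 1125 and 2465 normalised reads in GSI-labelled libraries, against 728, 450 and 482 in DMSO-labelled ones. Library 2 of GSI was the lowest of GSI at both times but above every DMSO library of its time. RORA rose by a log2 difference of 1.25 ± 0.33 at 48 h (limma, adjusted p = 0.036) and 1.88 ± 0.33 at 12 h (limma, adjusted p = 0.0039). TEF, a D-box activator related to DBP, averaged 919 ± 94.6 normalised reads in GSI and 561 ± 62.9 in DMSO at 48 h, and 1061 ± 149 in GSI and 759 ± 38.7 in DMSO at 12 h (SD, n = 3 each). TEF rose by 0.71 ± 0.13 at 48 h (limma, adjusted p = 0.012) and 0.47 ± 0.13 at 12 h (limma, adjusted p = 0.026). Without library 1 or library 3 of GSI at 48 h neither RORA nor TEF passed, with log2 differences of 1.00 and 1.27 for RORA (limma, adjusted p = 0.16 and 0.11) and 0.64 and 0.72 for TEF (adjusted p = 0.073 and 0.062). Calls over all genes kept fell with them, to 136 without library 1 and 119 without library 3, against 1866 with all libraries. RORA also did not pass without any 1 of the DMSO libraries at 48 h, with log2 differences of 1.14 to 1.47.

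NFIL3, a repressor at the D-box, averaged 538 ± 53.9 normalised reads in GSI and 308 ± 46.6 in DMSO at 12 h (SD, n = 3 each) and rose by 0.81 ± 0.19 on the log2 scale (limma, adjusted p = 0.011). At 48 h its log2 difference was 0.10 ± 0.19. BMAL1, the activator itself, averaged 4938 ± 450 normalised reads in GSI and 3894 ± 506 in DMSO at 12 h, a rise of 0.35 ± 0.11 (limma, adjusted p = 0.038), and CLOCK, its partner, differed by 0.18 ± 0.09 (limma, adjusted p = 0.18). RORB, at 0.44 ± 0.15 (limma, adjusted p = 0.048), and the kinase gene CSNK1D, at -0.30 ± 0.10 (limma, adjusted p = 0.049), passed narrowly, and with upper-quartile scaling CSNK1D did not (-0.21, adjusted p = 0.15). Of these 6 calls at 12 h, that of RORA held with each library left out, while that of NFIL3 was lost without library 1 of GSI (adjusted p = 0.054). With only the 12 h groups in the fit, or without library 1 or 3 of GSI or library 2 of DMSO at 12 h, 2 of the 19 were called. With the library number as a block, limma called 8 of the 19 at 48 h in place of 2, among them BMAL1, NPAS2, RORA, RORB and TEF higher and BMAL2 and BTRC lower, while the share of all genes kept that was called was 27.3%, against 9.68% without the block.

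**Figure D5:**
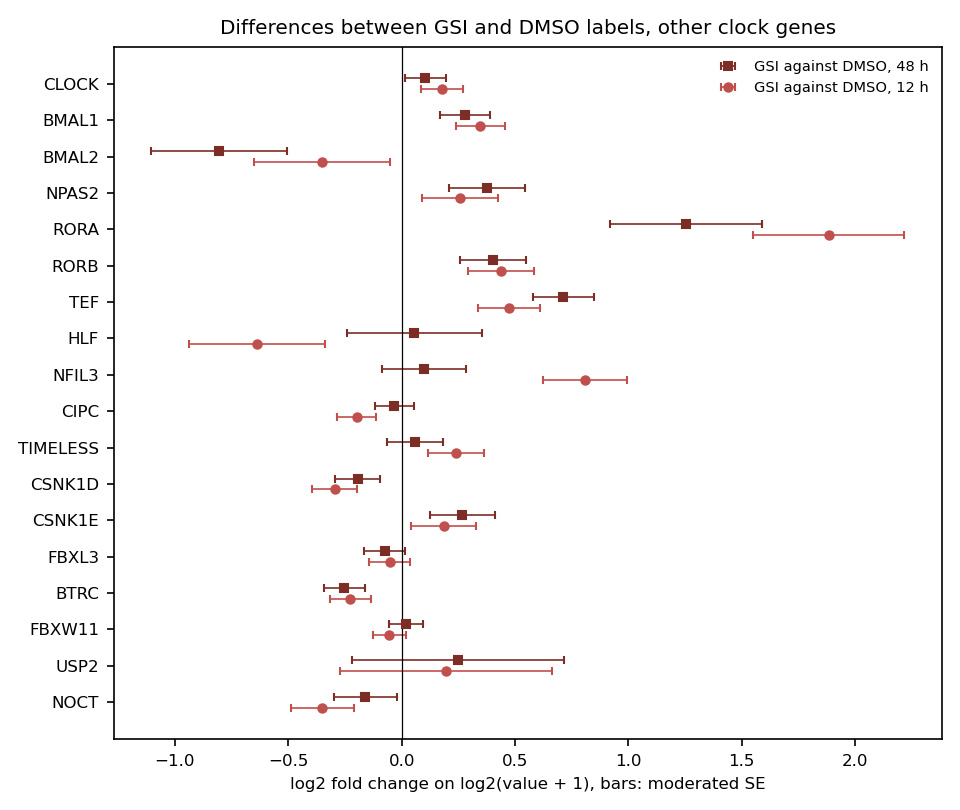
Log2 fold change of GSI over DMSO on the log2(value + 1) scale for 18 of the 19 other clock genes at 48 h (squares) and 12 h (circles), with bars of 1 moderated SE. Of the genes drawn, RORA lies farthest to the right at both times, at 1.25 and 1.88, and BMAL2 at 48 h farthest to the left, at -0.81.

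Over time, limma called 2 of the 19 higher at 48 h in DMSO, where 4.53% of all genes kept were called in either direction, and 2 in GSI, where 3.98% were, and 0 lower. These calls too are descriptions. In DMSO, BMAL1 averaged 5331 ± 447 normalised reads at 48 h and 3894 ± 506 at 12 h and rose by 0.46 ± 0.11 on the log2 scale (limma, adjusted p = 0.031). RORB averaged 3422 ± 270 at 48 h and 2107 ± 259 at 12 h in DMSO and rose by 0.70 ± 0.15 (limma, adjusted p = 0.015). In GSI, RORB averaged 4541 ± 563 normalised reads at 48 h and 2879 ± 552 at 12 h (SD, n = 3 each) and rose by 0.67 ± 0.15 (limma, adjusted p = 0.020). The blocked fit called 6 of the 19 in DMSO, among them TEF, CIPC and NOCT lower, and 4 in GSI, among them BMAL1 higher and NFIL3 lower, while it called 12.3% of all genes kept in DMSO and 10.1% in GSI. Without both GSI libraries numbered 2, 0 of the 19 were called in GSI. Leaving out library 2 at 12 h or library 1 at 48 h of DMSO left 0 calls in DMSO, as leaving out library 1 of GSI at 48 h did in GSI. Limma called 0 of the 19 in the test of the change of the GSI minus DMSO difference with time, with 1 at an unadjusted p under 0.05, and edgeR and DESeq2 also called 0.

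The genes whose levels followed a clock gene most closely over the 12 libraries were searched among 12002 genes with a symbol and a mean of at least 100 normalised reads. Among the 3 nearest to BHLHE40 were CIART (Pearson r = 0.978) and the growth factor binding protein gene IGFBP2 (0.967), and those nearest to CIART after BHLHE40 were MAST3 (0.965) and IGFBP2 (0.962). IGFBP2 had 43399, 6526 and 25871 normalised reads in the GSI-labelled libraries at 48 h, against 9794, 5775 and 5642 in the DMSO-labelled ones, so library 2 was low in GSI as for BHLHE40. Those nearest to PER1 were ACTR1B (0.973), ZNF395 (0.971) and ALKBH5 (0.971), and those nearest to NR1D1 were BCL6 (0.973), ZNF316 (0.969) and DCAF8 (0.958). BCL6, a transcriptional repressor, averaged 3987 ± 1399 normalised reads in GSI and 2100 ± 92.5 in DMSO at 48 h, and 4423 ± 1655 in GSI and 2738 ± 94.4 in DMSO at 12 h (SD, n = 3 each). These correlations are descriptions over libraries that share groups, library numbers and depth.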

How the data were processed

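Poly-A RNA was measured in 12 libraries of CUTLL1 cells. TopHat2 2.0.10, HTSeq 0.6.1, FastQC 0.10.1, DESeq2 and the build hg19 are named for the authors' work, per the submitters' processing notes. Settings, annotation and strand use were not given in the sources used here. Each deposited signal is a gene's read count over its library's size factor. Dividing by the value of 1 read gave whole reads for 100% of values within 0.01, and edgeR's quasi-likelihood test on those reads called 4201 genes at 12 h, 1919 at 48 h, 931 over time in DMSO and 740 in GSI.

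The 19281 genes kept were fitted with limma 3.58.1 in R 4.3.3 (trended prior, log2(value + 1), all 12 libraries, a mean per group) and called where the p adjusted by Benjamini-Hochberg over all of them was under 0.05, which gave 0 genes for the change with time (875 at an unadjusted p under 0.05, edgeR 0, DESeq2 61). Fold changes on this scale understate changes of low genes. The fit was also run on simulated reads drawn independently for each library. That run has no deviations shared by library number, so it cannot say how the fit handles them. Gene symbols came from a table of Ensembl identifiers that named 39007 of 62069, and 16495 of those kept.

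Deviations of same-numbered libraries from their group means correlated at 0.103, 0.157 and 0.104 between GSI and DMSO at 48 h, at 0.578, 0.612 and 0.545 over time in DMSO and at 0.400, 0.545 and 0.466 in GSI. Each was above the limit used, 0.1, which was taken as pairing. At 12 h they correlated at 0.0960, 0.272 and 0.0676, not all above the limit, which was not. The values between GSI and DMSO lie near the limit at both times, so they do not clearly set 48 h apart from 12 h. The members and gene lists were chosen with earlier results of these data known. All 10 members are described, other clock genes are named where called or with their value, and the 3 nearest genes by Pearson r are named for 4 members. Alternatives were pseudocounts of 0.1 and 5, no filter, upper-quartile scaling, only the groups compared, edgeR 4.0.16, DESeq2 1.42.0, a replicate block, and leaving out libraries. Results of some genes that the naming rule takes are not reported here.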

Additional observations from a re-analysis of the deposited data

How the results depend on the processing

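Of the 10 clock genes, 5 were called at 12 h, 4 to 7 with each library left out, and 8 without both GSI libraries numbered 2. With the replicate block 7 of the 10 were called at 12 h, adding PER3 (adjusted p = 0.0057) and CRY1 (0.0099), while calls over all genes kept were 36.1%, against 21.5% without the block. At 48 h, 8 did not overlap, 8 to 10 with a library left out. Leaving out a library can only narrow a range, so this count could not fall and is no check. Overlap also does not depend on the pseudocount. At 12 h the log2 difference of NR1D2 ran from -0.0435 to 0.357 with each library left out, and was below 0 without library 3 of GSI, and the cause was not tested. Among the 19 other clock genes, no filter gave 3 calls in place of 6 at 12 h and 1 in place of 2 at 48 h. With only the groups compared the count was 2 at 12 h, 4 at 48 h, 1 over time in DMSO and 1 in GSI; this could not be run for the change with time. DESeq2 called 5 at 48 h, 5 over time in DMSO, 4 in GSI, and 1 of the 8 clock genes over time in DMSO. With the replicate block limma called 10 at 12 h, where the numbers were not taken to pair the libraries, 8 at 48 h, 6 over time in DMSO and 4 in GSI, and 1 of the 8 clock genes over time in DMSO. Without both GSI libraries numbered 2 it called 4 at 48 h and 0 over time in GSI. Leaving out each library gave 2 to 6 at 12 h, 0 to 3 at 48 h, 0 to 3 over time in DMSO and 0 to 2 in GSI, and 0 in each for the change with time. The libraries whose absence moved these counts by over 1.5 times were 1 and 3 of GSI and 2 of DMSO at 12 h. At 48 h they were 1 and 3 of GSI and 1, 2 and 3 of DMSO. Over time in DMSO they were 2 and 3 at 12 h and 1, 2 and 3 at 48 h, and in GSI 2 and 3 at 12 h and 1, 2 and 3 at 48 h. Upper-quartile scaling moved the median of all genes by less than 0.1, and the 5 calls of clock genes at 12 h held under it, as under both pseudocounts, edgeR and DESeq2. At 3 libraries a group, a gene that misses the threshold may still differ.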
